A study of Mus musculus with 6 samples.

Results

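The NF-kB family and its inhibitors were followed here at the RNA level in CD4+ T cells, a class that includes helper and regulatory T cells, from mice that lack miPEP31, a small peptide encoded in pri-miR-31, the precursor RNA of miR-31. The set held 10 genes of the 52856 rows of the count table, chosen by symbol: the 5 subunit genes Nfkb1, Nfkb2, Rel, Rela and Relb, and the 5 inhibitor genes Nfkbia, Nfkbib, Nfkbid, Nfkbie and Nfkbiz. All 10 passed the filter on low counts, which left 14387 genes for testing. Spleen CD4+ T cells of C57BL/6 mice aged 8 weeks, either wild type (WT, 3 libraries) or of genotype miPEP31-/- (miPEP31 KO, 3 libraries), were stimulated with anti-CD3/28 for 48 hours, so every library is from stimulated cells and resting cells are not part of the comparison. The labels do not say whether the libraries of a group came from separate mice, so the p-values measure the spread between these libraries, which may be technical. They also do not say in which cells the deletion acts. The genotype could not be checked from the counts of Mir31, which stood at 0 in every library, WT included.

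NF-kB transcription factors are dimers of proteins that share a Rel homology domain. Rela, Rel and Relb carry transactivation domains, whereas Nfkb1 and Nfkb2 encode precursors that are processed to DNA-binding subunits without one. In resting T cells most dimers are held in the cytoplasm by the classical inhibitors encoded by Nfkbia, Nfkbib and Nfkbie, which are phosphorylated by the IkB kinase complex and degraded after the T cell receptor and CD28 are engaged. Several of these genes are themselves induced by NF-kB, and newly made inhibitor then limits the response. Nfkbid and Nfkbiz encode atypical members (IkBNS and IkB-zeta) that act in the nucleus together with NF-kB dimers, IkBNS in the induction of Foxp3 and IkB-zeta in Th17 development. They are counted with the inhibitors here by family, so a lower level of them is not a measure of less inhibition.

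The promoters of these genes are shown first, because family members are textbook targets of their own products. RefSeq promoter windows on GRCm38.p6, from 250 bases before to 50 bases after a transcript start, were at hand for 7 members, in 11 windows (Nfkb1, Relb and Nfkbiz are not in the table). A match to the kappaB consensus, searched on both strands, was found in 5 of the 7 members, Nfkb2, Rel, Nfkbia, Nfkbid and Nfkbie, and in 7 of the 11 windows. Over all windows of that table, 2581 of 27025 genes (9.55%) and 8.46% of windows held a match. Rela and Nfkbib had none, which says only that these letters are not in their windows. The AP-1 motif TGANTCA was in windows of 2 members, Nfkb2 and Nfkbie, against 8.97% of genes, and neither match overlapped a kappaB match. The interferon-response motif GAAANNGAAA was in 0 of the 7, against 3.99% of genes. A match is a description of the sequence and not a measured binding site.

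The 250 bases before a start of Nfkbia, Nfkbid and Nfkbie are printed as examples from genes that differed between the genotypes in the test below. They are on the strand of the gene, 5′ to 3′, with kappaB matches in capitals. The Nfkbia window is chr12:55492648-55492897 on the minus strand and the Nfkbie window is chr17:45555450-45555699 on the plus strand, and neither touches an annotated exon. The Nfkbid window is chr7:30422156-30422405 on the plus strand, which belongs to an internal start and lies between annotated exons of the gene. The Nfkbid windows at chr7:30421481-30421730, at the 5′ end of the gene, and at chr7:30423025-30423274 held no kappaB match and are not printed.
Nfkbia: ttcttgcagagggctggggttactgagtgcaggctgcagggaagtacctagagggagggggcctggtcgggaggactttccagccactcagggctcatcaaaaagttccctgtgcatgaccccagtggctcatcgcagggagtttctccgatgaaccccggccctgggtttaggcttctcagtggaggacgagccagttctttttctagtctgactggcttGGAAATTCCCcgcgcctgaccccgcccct
Nfkbie: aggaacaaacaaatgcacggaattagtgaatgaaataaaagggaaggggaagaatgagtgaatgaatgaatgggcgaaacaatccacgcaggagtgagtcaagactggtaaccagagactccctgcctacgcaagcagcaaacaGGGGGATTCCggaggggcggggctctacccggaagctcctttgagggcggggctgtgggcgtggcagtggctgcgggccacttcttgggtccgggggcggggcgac
Nfkbid: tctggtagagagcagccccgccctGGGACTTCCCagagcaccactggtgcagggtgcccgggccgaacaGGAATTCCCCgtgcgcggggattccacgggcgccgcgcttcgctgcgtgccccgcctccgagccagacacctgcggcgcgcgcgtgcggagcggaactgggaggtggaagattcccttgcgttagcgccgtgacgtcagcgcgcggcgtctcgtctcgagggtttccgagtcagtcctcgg
The match in Nfkbia begins 29 bases before the start, that in Nfkbie 106 bases before it, and those in Nfkbid 226 and 181 bases before it. For Nfkb2 and Rel 1 site each is shown, with 30 bases. The first Nfkb2 window lies wholly within annotated exons. These are chr19:46304688-46304717 on the plus strand for Nfkb2, whose match begins 39 bases before the start, and chr11:23771042-23771071 on the minus strand for Rel, whose match begins 92 bases before the start. A further match in the same Nfkb2 window begins 11 bases before the start. Every Nfkb2 window, the first included, lies inside the annotated gene. The other Nfkb2 windows hold 2 more matches, at chr19:46305459-46305468 and chr19:46305705-46305714, the latter within both windows.
Nfkb2: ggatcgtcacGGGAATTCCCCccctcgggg
Rel: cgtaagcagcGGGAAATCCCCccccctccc
Rel is shown for its match although its level did not pass the test.

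Library totals lay between 22865487 and 26295776 counts, and every member had at least 505 counts in each library. Levels are given as CPM, counts relative to library size after scaling with TMM, a correction for differences in RNA composition. The CD4 T cell markers Cd3d, Cd3e, Cd3g, Trac, Cd4, Cd28, Thy1 and Lck were all well above 1 CPM in every library, with a sum of 2170 to 2310 CPM in WT and 1860 to 2060 CPM in KO. Of these 8, 1 was called higher and 5 lower. Cd4 stood at 421 to 498 CPM in WT and 295 to 311 CPM in KO, and Trac at 237 to 243 and 162 to 171 CPM. Thy1 went the other way, at 418 to 434 CPM in WT and 460 to 513 CPM in KO. Some markers of other cells also moved with genotype, and the part of any marker list in the results below was not tested. The calls among markers stand beside 25.1% of all genes tested called higher and 22.2% lower. The 8 dendritic cell markers summed to 22.7 to 28.3 CPM in WT and 111 to 128 CPM in KO, of which Batf3 alone gave 16.4 to 21.5 and 98.3 to 115 CPM; without Batf3, a choice made after its values were seen, the sums were 6.25 to 7.58 and 12.0 to 13.1 CPM. Of the 4 dendritic cell markers that were tested, 2 were called higher and 0 lower. Zbtb46 stood at 3.13 to 5.42 CPM in WT and 7.27 to 10.6 CPM in KO, and Flt3 at 0.958 to 1.86 and 1.41 to 3.23 CPM. The listed genes Clec9a and Cd209a had 0 counts in every library, and Itgax stayed below 1 CPM. The 10 macrophage and monocyte markers summed to 43.3 to 54.4 CPM in WT and 112 to 143 CPM in KO, with Adgre1 and Fcgr1 at 0 in every library and Lyz2 at no more than 0.43 CPM. Of the 4 macrophage and monocyte markers that were tested, 3 were called higher and 0 lower. Mpeg1, Ctss and Cybb, singled out after their values were seen, carried the higher sum. Without them it was 4.27 to 7.71 CPM in WT and 3.06 to 5.76 CPM in KO. Since genes that rose were taken out, this remainder cannot say whether the list rose. Cd68 gave most of it, at 4.0 to 7.54 CPM in WT and 2.63 to 5.12 CPM in KO. B cell markers, 10 genes that include Cd79a, summed to 87.1 to 129 CPM in WT and 79.5 to 156 CPM in KO. Within that sum 3 were called higher and 1 lower. Ms4a1 stood at 3.89 to 5.16 CPM in WT and 7.72 to 10.3 CPM in KO, whereas Fcer2a stood at 15.1 to 25.3 and 9.01 to 14.3 CPM. The 2 CD8 markers summed to 12.5 to 15.8 and 15.9 to 36.9 CPM and the 4 NK cell markers to 5.09 to 7.5 and 10.5 to 21.9 CPM. Eomes alone gave 4.56 to 6.85 and 9.89 to 21.4 CPM of the NK cell sum. Ncr1 and Klra8 stayed at no more than 0.301 CPM, and Klrb1c was at 0.218 to 1.18 CPM in WT and 0.086 to 0.521 CPM in KO. The 6 neutrophil markers summed to 0.76 to 1.48 CPM in WT and 0 to 0.223 CPM in KO, and the 1 that was tested was called lower. In bulk RNA, fewer cells of a type and less RNA per cell cannot be told apart.

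Of the 10 members, 6 rose in the miPEP31 KO, 2 fell, both of them atypical nuclear members, and 2 did not pass the test. Of the 5 subunit genes, 4 rose and 0 fell (edgeR quasi-likelihood test, Benjamini-Hochberg adjusted p under 0.05). Of the 5 inhibitor genes, 2 rose, 2 fell and 1 did not pass. Over all genes tested, 25.1% were called higher and 22.2% lower, so that 8 of 10 members called stands beside 47.3% of all genes. The median log2 fold change was 0.35 for the subunits and 0.28 for the inhibitors, beside a median of 0.01 over all genes. The changes were ordinary in size for this comparison: no member changed as much as 2-fold, and their log2 fold changes lay between the 20.1 and the 88.7 percentile of all genes tested. The genotypes' ranges were apart for 8 of the 10 members, against 59.1% of all genes tested.

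**Figure D1:**
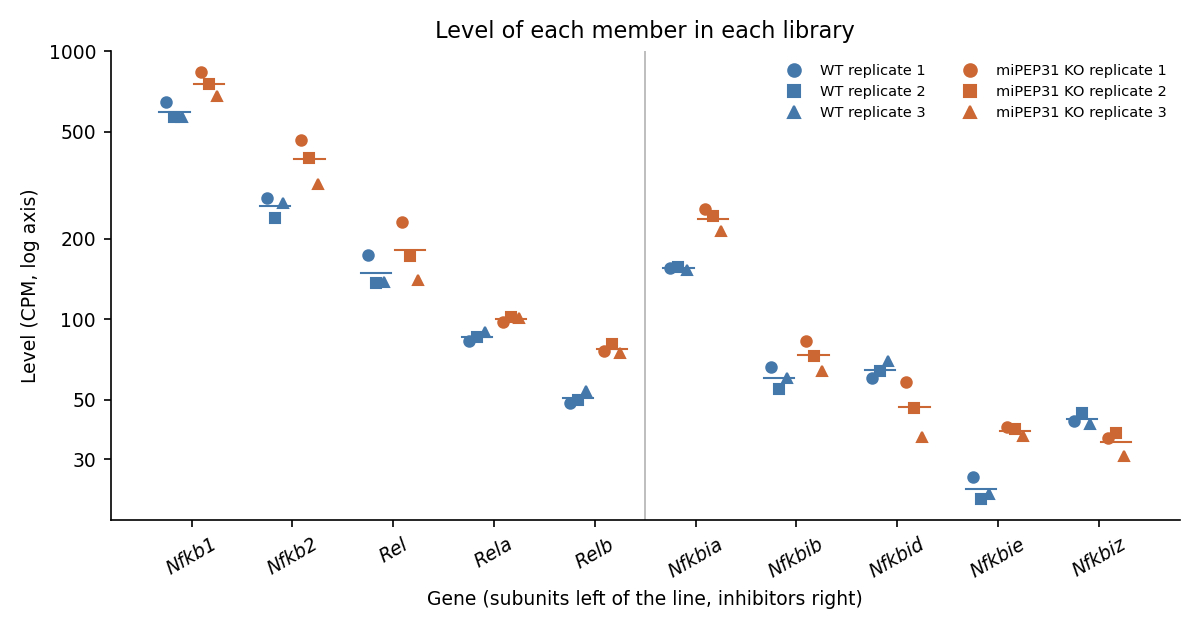
Level of each of the 10 members (CPM, log axis) in the 3 WT and 3 miPEP31 KO libraries, 1 point a library, with a horizontal line at each group mean. Nfkb1 is highest at 568 to 837 CPM, all 3 KO points lie above all 3 WT points for Nfkb1, Nfkb2, Rela, Relb, Nfkbia and Nfkbie, and below them for Nfkbid and Nfkbiz.

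The clearest rise among the subunits was that of Relb, the transactivating partner of the Nfkb2 product in the non-canonical pathway (ENSMUSG00000002983, chromosome 7, 19606217 to 19629438, GRCm38, protein-coding, minus strand). Its level was 48.6, 49.9 and 53.7 CPM in WT replicates 1, 2 and 3 and 76.1, 80.4 and 75.0 CPM in the KO replicates. The groups were far apart for their small spread, with SDs of 2.63 and 2.82 CPM. Relb rose 1.52-fold (log2 fold change 0.61, SE 0.07, edgeR adjusted p = 2.36e-04). It kept its call in all 14 alternative fits tried, with log2 fold changes of 0.57 to 0.65.

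Nfkb2 encodes the p100 precursor, itself an inhibitor until it is processed to p52 (ENSMUSG00000025225, chromosome 19, 46304320 to 46312385, plus strand). It stood at 284, 238 and 271 CPM in WT and 465, 400 and 321 CPM in KO. KO replicate 3 was the nearest to WT, and the groups did not overlap. Nfkb2 rose by 0.58 on the log2 scale, with SE 0.13 and edgeR adjusted p = 0.00757 (95% interval from 1.21-fold to 1.84-fold), and its call also held in all 14 alternatives. On the opposite strand, exons of Nfkb2 share 299 bases with those of Psd and 531 bases with those of the long noncoding RNA gene AC114539.1, and the deposited counts of Nfkb2 were not whole numbers in any of the 6 libraries. Psd stood at 5.24 to 5.48 CPM in WT and 11.9 to 16.2 CPM in KO, far below Nfkb2. No source used here states whether counting used strand, so reads of the shared bases cannot be told apart.

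Nfkb1 encodes the p105 precursor of p50, the DNA-binding partner of Rela and Rel in the canonical pathway (ENSMUSG00000028163, chromosome 3, 135584655 to 135691547, minus strand). Its levels were 645, 568 and 569 CPM in WT and 837, 758 and 680 CPM in KO. The lowest KO library stood just above the highest WT library. The rise was 1.28-fold (log2 fold change 0.35, SE 0.09, edgeR adjusted p = 0.0125). Leaving out WT replicate 2 ended the call (edgeR adjusted p = 0.0612), as did leaving out WT replicate 3 (adjusted p = 0.0568), both with a log2 fold change of 0.32.

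Rela, the main transactivating subunit in most cells, changed least among the members called (ENSMUSG00000024927, chromosome 19, 5637483 to 5648130, plus strand). It was at 83.1, 85.5 and 89.5 CPM in WT and 97.8, 102 and 101 CPM in KO. Both groups were tight, with a coefficient of variation of 3.73% in WT and 2.24% in KO, and they did not overlap. Rela rose 1.17-fold (log2 fold change 0.22, SE 0.06, edgeR adjusted p = 0.0142). Without WT replicate 1, WT replicate 2 or KO replicate 2 the adjusted p was 0.0638, 0.0639 and 0.0667, with log2 fold changes of 0.19, 0.21 and 0.20.

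Rel encodes c-Rel, the lymphoid subunit induced strongly after T cell activation (ENSMUSG00000020275, chromosome 11, 23736847 to 23770970, minus strand). Its levels were 174, 136 and 138 CPM in WT and 231, 172 and 140 CPM in KO. The groups overlapped, since 2 KO libraries lay inside the WT range and 1 lay above it. With a log2 fold change of 0.28 and SE 0.18, Rel missed the threshold (edgeR adjusted p = 0.222), with a 95% interval from 0.917-fold to 1.61-fold that also holds the sizes seen for Nfkb1 and Nfkb2. The estimate rested on single libraries: it was 0.07 without KO replicate 1 and 0.42 without KO replicate 3, with no call in either.

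**Figure D2:**
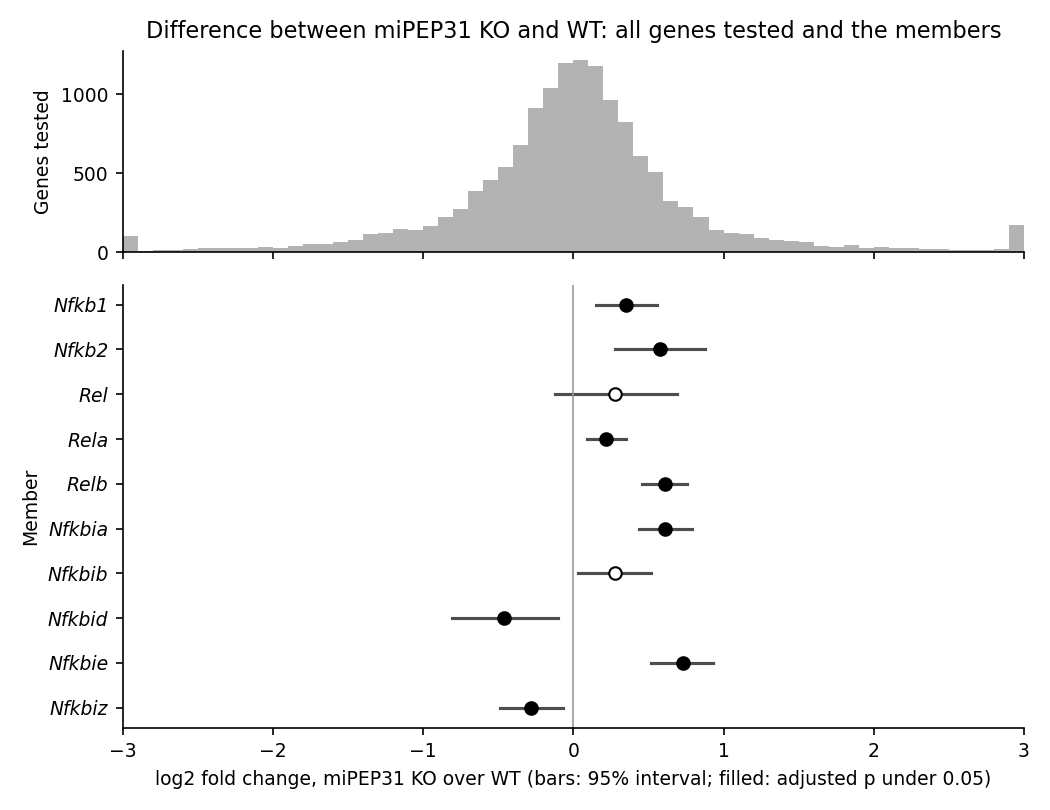
Upper panel: number of genes by log2 fold change between miPEP31 KO and WT for all 14387 genes tested, with values beyond 3 in either direction gathered in the outermost bars. Lower panel: the same quantity for each member with its unadjusted 95% interval, filled where adjusted p was under 0.05; the members lie between -0.46 (Nfkbid) and 0.73 (Nfkbie).

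Among the inhibitors, the classical members that hold dimers in the cytoplasm rose or did not pass. Nfkbie encodes IkB-epsilon and had the largest log2 fold change of the 10 members (ENSMUSG00000023947, chromosome 17, 45555703 to 45563169, plus strand). It stood at 25.7, 21.3 and 22.3 CPM in WT and 39.5, 38.9 and 36.5 CPM in KO. No KO library came near the WT range. The rise was 1.66-fold (log2 fold change 0.73, SE 0.09, edgeR adjusted p = 4.26e-04), and it was called in all 14 alternatives with log2 fold changes of 0.67 to 0.81.

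Nfkbia encodes IkB-alpha, the inhibitor resynthesised fastest after NF-kB activation (ENSMUSG00000021025, chromosome 12, 55489410 to 55492647, minus strand). Its level was 155, 157 and 153 CPM in WT, the tightest group of any member, with a coefficient of variation of 1.08%. In KO it was 257, 242 and 213 CPM, all well above WT. Nfkbia rose 1.53-fold (log2 fold change 0.61, SE 0.08, edgeR adjusted p = 4.45e-04), with a call in all 14 alternatives. No other annotated gene overlaps Nfkbia, Nfkbid, Nfkbie, Nfkbiz, Rel, Rela or Relb.

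Nfkbib encodes IkB-beta, an inhibitor that is resynthesised more slowly (ENSMUSG00000030595, chromosome 7, 28758251 to 28767512, minus strand). It had 66.1, 54.9 and 60.1 CPM in WT and 82.5, 73.1 and 63.9 CPM in KO. KO replicate 3 fell inside the WT range. Its log2 fold change of 0.28 (SE 0.11) missed the threshold (edgeR adjusted p = 0.0630), although its unadjusted 95% interval ran from 1.02-fold to 1.44-fold. It did pass without KO replicate 3 (log2 fold change 0.35, adjusted p = 0.00997), and stood at 0.18 when KO replicate 1 was left out. Exons of Nfkbib share 314 bases with Ccer2, at no more than 0.112 CPM in any library, and 42 bases with Sirt2, at 67.1 to 73.0 CPM in WT and 53.5 to 68.0 CPM in KO, both on the opposite strand.

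The 2 atypical nuclear members went the other way. Nfkbid (ENSMUSG00000036931, chromosome 7, 30421732 to 30428746, plus strand) stood at 60.1, 63.8 and 69.6 CPM in WT and 58.2, 46.6 and 36.2 CPM in KO. KO replicate 1 was just below the lowest WT library, and KO replicate 3 was well below it. Nfkbid was 1.37-fold lower (log2 fold change -0.46, SE 0.15, edgeR adjusted p = 0.0404). The call ended when any one WT library, or KO replicate 2, was left out (edgeR adjusted p = 0.0743, 0.0946, 0.131 and 0.102), with log2 fold changes of -0.51 to -0.40, and the log2 fold change was -0.31 without KO replicate 3.

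Nfkbiz (ENSMUSG00000035356, chromosome 16, 55811375 to 55838899, minus strand) had 41.6, 44.6 and 40.5 CPM in WT and 36.0, 37.7 and 30.7 CPM in KO. All KO libraries were below all WT libraries, by little in KO replicate 2. It was 1.21-fold lower (log2 fold change -0.28, SE 0.09, edgeR adjusted p = 0.0345). The call did not survive dropping KO replicate 3 or any 1 WT library (edgeR adjusted p = 0.0511, and 0.0786, 0.123 and 0.0615 for WT replicates 1, 2 and 3), with log2 fold changes of -0.31 to -0.21. Nfkbid and Nfkbiz both kept a negative sign in all 14 alternatives, scalings included. With plain library sizes, which moved the median of all genes from 0.01 to 0.06, neither passed (edgeR adjusted p = 0.0531 for Nfkbid and 0.0644 for Nfkbiz).

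The KO libraries differed from each other in a shared way across the members. KO replicate 3 was the lowest of the 3 KO libraries for 9 of the 10 members, Rela being the exception, and KO replicate 1 was the highest for 7. Over all genes tested, KO replicate 3 was the lowest in 38.0% and KO replicate 1 the highest in 39.5%. The ratio of KO replicate 3 to KO replicate 1 was 0.606 for Rel, 0.621 for Nfkbid, 0.692 for Nfkb2 and 0.774 for Nfkbib. It was 0.986 for Relb, 1.04 for Rela and 0.924 for Nfkbie, so these genes were level across the KO libraries. KO replicate 3 was thus the KO library nearest to WT for Nfkb1, Nfkb2, Rel, Relb, Nfkbia, Nfkbib and Nfkbie, but the one farthest from WT for Nfkbid and Nfkbiz.

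**Figure D3:**
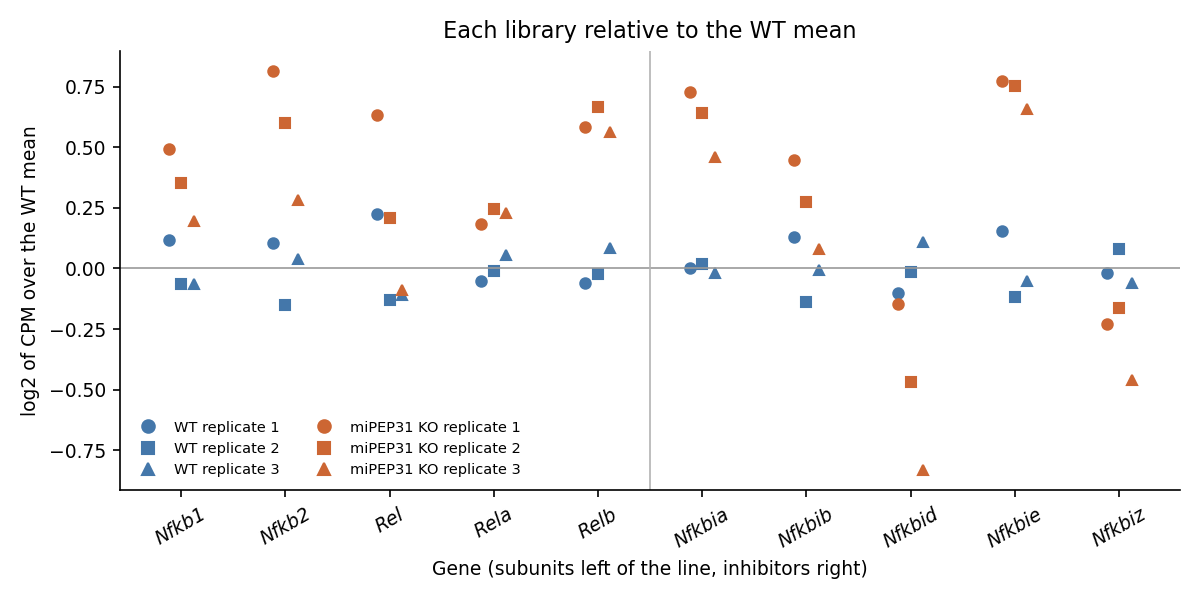
Level of each member in each library, as log2 of CPM over the WT mean of that gene, with a line at 0. KO replicate 3 (triangles) is the lowest KO library for 9 of 10 members, while Relb, Rela and Nfkbie are nearly level across the KO libraries.

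Levels of different genes are compared per kilobase of the longest principal coding transcript in GENCODE M21. In WT, Nfkb1 was the highest at 144 ± 10.7 CPM per kb (SD, n = 3), followed by Nfkbia at 98.3 ± 1.06 and Nfkb2 at 84.1 ± 7.56 CPM per kb. Next came Rela at 31.7 ± 1.18, Nfkbid at 31.6 ± 2.36 and Nfkbib at 29.3 ± 2.71 CPM per kb, whose libraries overlapped, and then Relb at 23.0 ± 1.19 CPM per kb. Rel, at 23.2, 18.2 and 18.4 CPM per kb in the WT libraries (SD 2.84), overlapped Relb. Nfkbiz at 10.3 ± 0.507 and Nfkbie at 9.49 ± 0.952 CPM per kb were lowest and overlapped. In KO the order of the top genes was Nfkb1 at 184 ± 19.1, Nfkbia at 150 ± 14.0 and Nfkb2 at 126 ± 22.8 CPM per kb, the last pair overlapping. Nfkbid, in place 5 in WT, was in place 8 in KO at 23.1 ± 5.41 CPM per kb, overlapping Rel at 24.3 ± 6.19. Relb at 34.9 ± 1.27 CPM per kb reached the range of Nfkbib (35.5 ± 4.51), which in turn overlapped Rela (36.9 ± 0.829). Nfkbie at 15.7 ± 0.656 CPM per kb stood above Nfkbiz at 8.46 ± 0.887, with no overlap. The order of the top genes depends on the length used: per kilobase of all annotated exons, which for Nfkb1 are 12061 bases against a transcript of 4117, Nfkb1 came after Nfkbia and Nfkb2.

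Within the inhibitor RNA, the share of Nfkbia was higher and that of Nfkbid lower in KO. Shares here are of the summed CPM per kb, as a description with no test. Nfkbia made up 54.4%, 56.2% and 54.2% of the inhibitors in WT and 63.5%, 64.7% and 65.5% in KO. Nfkbid went from 16.3%, 17.7% and 19.0% to 11.1%, 9.66% and 8.60%. The groups did not overlap for either share, nor for those of Nfkbie and Nfkbiz. Nfkbib, with 16.4% ± 1.36 in WT and 15.2% ± 0.355 in KO (SD, n = 3), overlapped. Among the subunits, Nfkb1 held 47.6% ± 1.33 and 45.4% ± 0.694, Nfkb2 27.7% ± 1.14 and 30.8% ± 2.05, Rela 10.5% ± 0.876 and 9.19% ± 1.24, Relb 7.60% ± 0.690 and 8.67% ± 0.968, and Rel 6.57% ± 0.557 and 5.92% ± 0.828 (SD, n = 3 each). The WT and KO ranges overlapped for each of these 5 shares. Per kilobase of all annotated exons that of Nfkb2 did not overlap, with 32.9% to 35.2% in WT and 35.5% to 40.0% in KO.

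**Figure D4:**
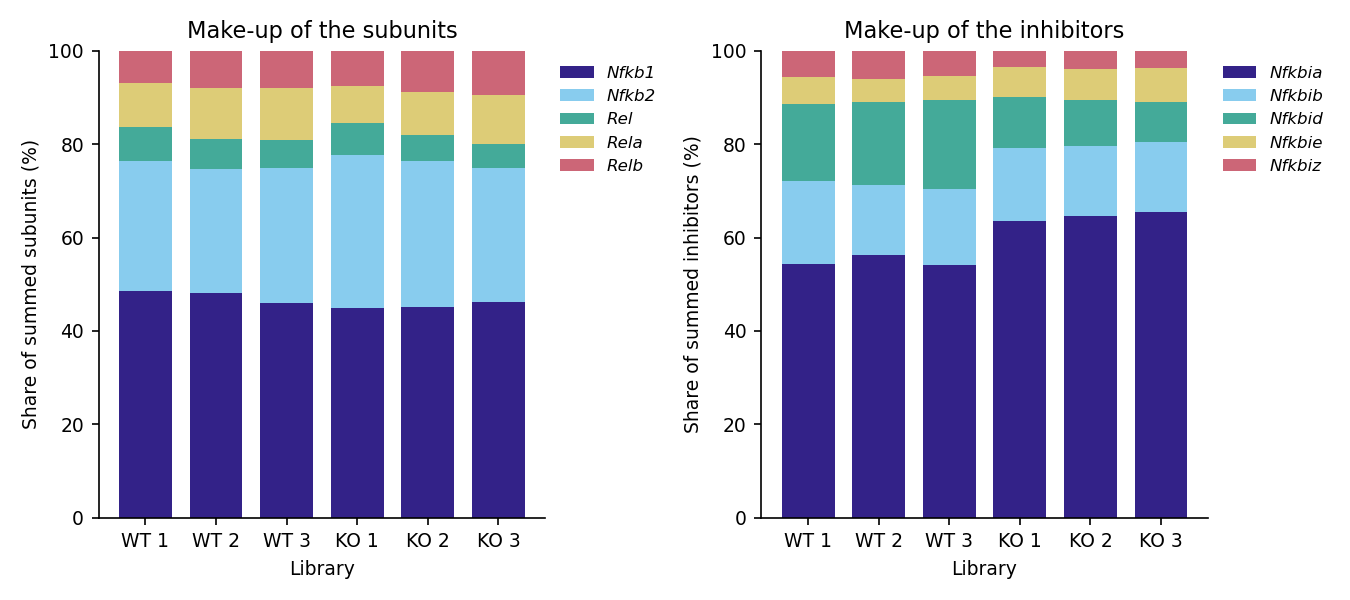
Share of each gene in the summed CPM per kb of the 5 subunits (left, %) and of the 5 inhibitors (right, %) in each WT and miPEP31 KO library. The Nfkbia share of the inhibitors is 54.2% to 56.2% in WT and 63.5% to 65.5% in KO, while the Nfkbid share is 16.3% to 19.0% and 8.60% to 11.1%.

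Summed over their classes, inhibitors and subunits kept nearly the same ratio. All 5 inhibitors together stood at 0.559, 0.619 and 0.598 of the subunits in WT and 0.566, 0.580 and 0.577 in KO, and the KO values lay inside the WT range. Split by kind, the classical inhibitors Nfkbia, Nfkbib and Nfkbie stood at 0.436, 0.471 and 0.452 of the subunits in WT and 0.484, 0.501 and 0.507 in KO. The nuclear pair Nfkbid and Nfkbiz went from 0.123, 0.147 and 0.147 to 0.0824, 0.0784 and 0.0705. The KO mean of this ratio was 0.555 ± 0.0713 of the WT mean (SD propagated from both groups). The ratio of Nfkbia to Nfkbid was 3.33, 3.17 and 2.85 in WT and 5.70, 6.70 and 7.62 in KO. Nfkb2 to Nfkb1 was 0.577, 0.549 and 0.623 against 0.728, 0.692 and 0.620, with KO replicate 3 inside the WT range. These ratios carry no test, since they are scores over chosen genes.

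The genes whose pattern over the 6 libraries was most like the mean standardised level of the 10 members were, among 8993 other genes of at least 10 CPM, Trat1, Man2a1, Gpat4, Ncoa7 and Camsap1, with Pearson r of 0.9956 to 0.9938. The mean standardised level was -0.31, -0.65 and -0.47 in WT and 0.96, 0.60 and -0.13 in KO. This mean joins members with opposed patterns: r was 0.98 between Nfkb1 and Nfkb2, but -0.74 between Nfkbid and Rela and -0.79 between Nfkbiz and Relb. It is therefore not the pattern of each member. With 6 points in groups of 3, r is a description only.

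Other genes of the pathway were called in both directions, as were all genes tested (25.1% higher and 22.2% lower). Of 19 kinase and adaptor genes of the canonical route, 8 rose and 4 fell, beside 47.3% of all genes called in either direction, with a median log2 fold change of 0.14. Malt1 and Bcl10, which act between the antigen receptor and the IkB kinases, were named for that role after their values were seen. Malt1 fell by 0.84 on the log2 scale, from 437 ± 39.9 to 245 ± 36.3 CPM (SD, n = 3 each; edgeR adjusted p = 8.01e-04), and Bcl10 rose by 0.32 (adjusted p = 0.00429). Within the IkB kinase complex, Chuk, which encodes IKK-alpha, rose from 76.4 ± 2.46 to 113 ± 7.44 CPM (edgeR adjusted p = 3.84e-04). Ikbkb, which encodes IKK-beta, fell from 118 ± 5.06 to 90.9 ± 2.91 CPM (adjusted p = 0.00146), and the regulatory subunit gene Ikbkg had a log2 fold change of -0.08 (adjusted p = 0.490); both were chosen after their values were seen. Ripk1, a kinase scaffold of TNF receptor signalling, rose 1.46-fold (adjusted p = 5.98e-04).

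Of 12 genes of the non-canonical route and its receptors, 4 rose and 3 fell, with a median of -0.01, so that 7 of 12 called stands beside 47.3% of all genes. Cd27, a costimulatory receptor, fell from 55.2 ± 0.589 CPM in WT to 13.2 ± 3.24 CPM in KO, SD over 3 libraries each (edgeR adjusted p = 4.43e-05). Tnfrsf4, the gene of OX40, rose from 599 ± 5.76 to 875 ± 28.1 CPM (adjusted p = 1.37e-04). Cd40, best known on B cells and dendritic cells, rose from 3.76 ± 0.177 to 10.3 ± 0.623 CPM (adjusted p = 8.86e-05), beside the marker sums above.

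Of 22 other IkB-like genes and negative regulators, 7 rose and 4 fell, with a median of 0.11, and 11 of 22 called is close to the 47.3% over all genes. Tnip3, a partner of the ubiquitin-editing enzyme A20, had 40.5, 49.6 and 47.8 CPM in WT and 1.77, 2.16 and 3.01 CPM in KO. The difference of -4.31 on the log2 scale (SE 0.18, edgeR adjusted p = 3.63e-06) was larger in size than that of any member. N4bp1 and Rnf11 rose 1.99-fold and 1.91-fold (adjusted p = 1.06e-04 and 1.55e-04). Bcl3, a further nuclear IkB protein named for its kinship with Nfkbid and Nfkbiz after its values were seen, had 121, 118 and 145 CPM in WT and 63.9, 94.0 and 122 CPM in KO. Its log2 fold change of -0.46 missed the threshold (edgeR adjusted p = 0.0966), and it passed without KO replicate 3 (log2 fold change -0.71, adjusted p = 0.0231).

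Of the 5 IKK-related kinases and their adaptors, 3 rose and 1 fell, with a median of 0.27, beside 25.1% and 22.2% of all genes. Azi2 and Tbk1 rose 1.58-fold and 1.35-fold (edgeR adjusted p = 4.00e-04 and 7.25e-04), and the adaptor gene Tbkbp1 fell by 0.75 on the log2 scale (adjusted p = 1.97e-04). Of 30 textbook target genes of NF-kB outside the set, 29 were tested, 18 rose and 4 fell, beside 25.1% and 22.2% of all genes. Their median log2 fold change was 0.69, with a range from -1.15 (Ltb) to 5.81 (Il6). Many of these targets also answer to interferon or to other factors, so the list is not a readout of NF-kB alone. Il6 rose from 0.359 ± 0.102 to 20.4 ± 4.95 CPM and Ccl5 from 5.02 ± 0.331 to 137 ± 8.92 CPM, whereas Ltb fell from 158 ± 3.21 to 70.9 ± 4.11 CPM (SD, n = 3 each, edgeR adjusted p = 6.19e-06, 1.91e-07 and 1.40e-05).

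**Figure D5:**
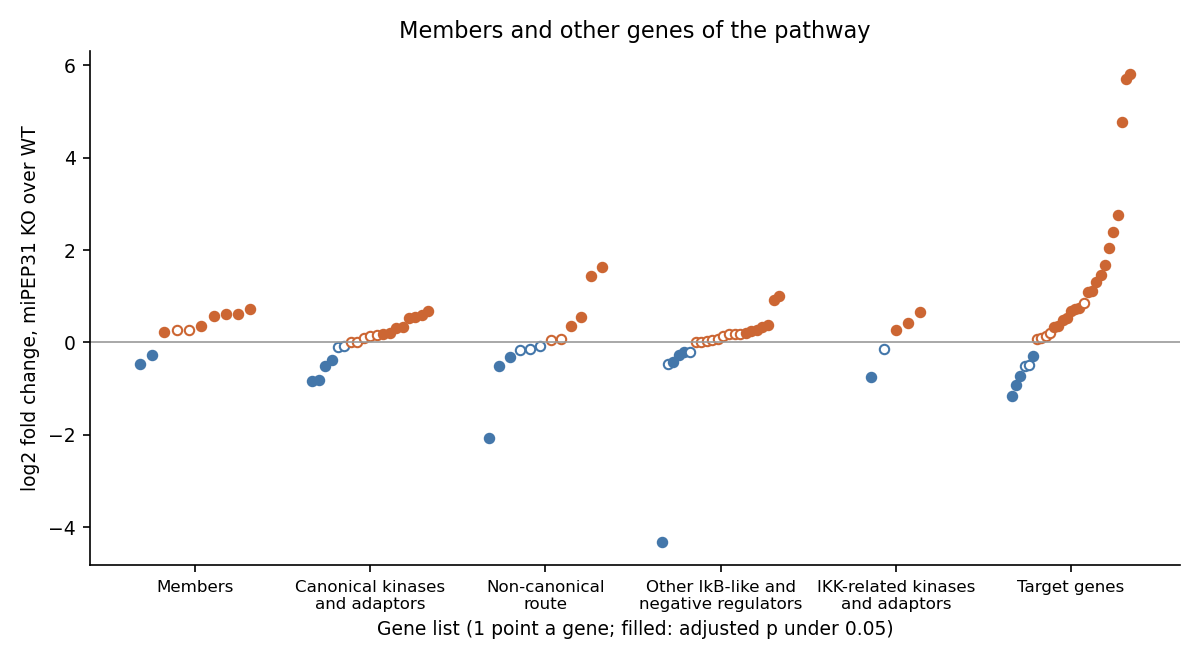
log2 fold change of each gene between miPEP31 KO and WT, 1 point a gene, for the 10 members and 5 lists of other pathway genes, filled where adjusted p was under 0.05. The members lie between -0.46 and 0.73, while Tnip3 reaches -4.31 among the negative regulators and Il6 reaches 5.81 among the target genes.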

How the data were processed

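RNA-seq of 3 WT and 3 miPEP31 KO libraries was used. The authors deposited estimated counts per gene (52856 rows, of which 72.2% of the values above 0 were whole). They were rounded to whole numbers here. The 944 rows with MSTRG identifiers stayed in library sizes and tests. Per the submitters' processing notes, Bowtie 0.12.2 and mm8 were named without a role; no source used here names the counting program or its strand setting. The deposited log-scale table of 30 genes holds no member and was not used.

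Symbols, coordinates and lengths came from GENCODE M21 (GRCm38) by gene ID. The edgeR 4.0.16 quasi-likelihood test (robust, TMM, filterByExpr at its minimum count of 10, no covariate) was fitted once on 14387 genes, with Benjamini-Hochberg adjustment over all. Each SE is the log2 fold change, unshrunk, divided by √F. Intervals of 95% use the test's degrees of freedom. Alternatives used DESeq2 1.42.0, limma 3.58.1 (R 4.3.3), other scalings and filters, a replicate block and leaving out each library. Pathway genes named are the 3 of each list with the smallest p among those called, of which 1 is not reported here. The members and lists were chosen with earlier results of these data known. Transcript length was preferred to all annotated exons after the lengths were seen. On counts simulated for KO against WT with 14387 genes, edgeR recovered 54% of 50 genes changed 1.5-fold and 68% of those changed 2-fold. Of its calls, 7.65% were unchanged genes. Only 50 genes at each of 1.5-, 2-, 4- and 8-fold were changed, a far smaller share than the 47.3% called in the data. These rates, taken over genes of all levels, may therefore not carry over to the members. Same-numbered libraries did not deviate together (r = 0.00103, -0.00718 and -0.0156), and no pair of libraries was alike within sampling noise.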

Additional observations from a re-analysis of the deposited data

How the results depend on the processing

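Of 14 alternative fits, Relb, Nfkb2, Nfkbia and Nfkbie kept their call and direction in all, and Rel stayed without a call in all. No member changed direction. Of 20 pathway genes refitted, 19 kept their side of the threshold and their direction; the exception, Bcl3, also passed with DESeq2 (-0.48, adjusted p = 0.0374) and with a replicate block (-0.50, edgeR adjusted p = 0.0324). The number of genes called ranged from 5142 to 7233 when leaving out 1 library, against 6806. Leaving out 1 library each, the log2 fold change ranged from 0.27 to 0.41 for Nfkb1, 0.19 to 0.25 for Rela, 0.18 to 0.35 for Nfkbib, -0.64 to -0.31 for Nfkbid and -0.35 to -0.21 for Nfkbiz; subunits called higher ranged from 2 to 4 and inhibitors called lower from 0 to 2. Among other negative regulators, the same fits called 2 to 7 higher and 2 to 6 lower, and in the non-canonical route 1 to 4 lower. With plain library sizes, Nfkbib passed (0.32, adjusted p = 0.0336), Nfkbid (-0.41) and Nfkbiz (-0.23) did not, 0 inhibitors were lower, and 2 other negative regulators were lower. Without the low-count filter, Nfkbid did not pass (-0.47, edgeR adjusted p = 0.113), leaving 1 inhibitor lower and 4 other negative regulators higher. With a replicate block, Nfkbid stood at -0.48 (edgeR adjusted p = 0.0632), again with 1 inhibitor lower and 4 other negative regulators higher, and 5736 genes were called; the libraries share only a number, as their deviations did not go together. With DESeq2, each member stayed on its side of the threshold. The cause of these shifts was not tested. Per kilobase of all annotated exons, an alternative added after the data were seen, the WT order placed Nfkbia at 1, Nfkb2 at 2, Nfkb1 at 3, Nfkbib at 5, Nfkbid at 6, Rel at 7 and Relb at 8.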
